A study of Mus musculus with 4 samples.

Results

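Genes for replication licensing and the replication fork were followed on 4 one-color arrays of mouse embryonic fibroblast (MEF) RNA. The list held 48 gene names, chosen for their roles with earlier results of these data known, and 43 of them matched a gene name in the array files, among 31824 gene names in all. The other 5, Orc2 to Orc6, stand in the files under the older names Orc2l to Orc6l and are given apart. The 4 conditions were untreated WT MEFs (p53+/+), doxorubicin-treated WT MEFs, untreated p53-/- MEFs and doxorubicin-treated p53-/- MEFs. Each condition had 1 array, and all arrays were on 1 slide, so no difference between conditions has a replicate check and the place on the slide cannot be told apart from the condition. For the making of the MEFs, the paper refers to an earlier publication. The strain, the embryo age, the number of embryos, and the dose and time of doxorubicin for the arrays are not given in the sources used here.

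Before DNA can be copied, the origin recognition complex (ORC), Cdc6 and Cdt1 load the MCM2-7 helicase onto origins in G1, a step called licensing, and geminin (Gmnn) holds Cdt1 in check afterwards. In S phase, the kinase Cdc7 with its partner Dbf4, Mcm10, Cdc45 and the GINS complex turn the loaded helicase into a moving fork. There, primase and DNA polymerases alpha, delta and epsilon make DNA, the clamp Pcna holds the polymerases in place, RPA covers single-stranded DNA, and Fen1 and Lig1 join the lagging strand. Many of these genes are known as targets of E2F transcription factors and are expressed mainly in proliferating cells. Doxorubicin is a topoisomerase II poison that breaks DNA, and p53 is a transcription factor that halts the cell cycle after such damage, in fibroblasts largely through Cdkn1a (p21).

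The genotype labels were checked first. The Trp53 probe (mm9 chromosome 11, 69404204 to 69404263) had signals of 1228 in untreated WT, 3442 in doxorubicin-treated WT, 442 in untreated p53-/- and 543 in doxorubicin-treated p53-/- MEFs. Both p53-/- arrays were below both WT arrays, although the probe was well above background on all of them, and where it lies relative to the targeted stretch was not tested. Cdkn1a, the cell cycle inhibitor p21, had signals of 28619, 105995, 977 and 5912 in the same order. Mdm2, the ubiquitin ligase that p53 induces, had signals of 52283, 183079, 13656 and 24286. For these p53 targets, too, both p53-/- arrays were below both WT arrays. The log2 ratio of doxorubicin-treated over untreated MEFs was 2.08 in WT and 2.23 in p53-/- MEFs for Cdkn1a, and 2.0 and 0.47 for Mdm2. All 10 fibroblast markers, led by Col1a2, were well above background on every array, and so were some markers of other cell types, among them Krt14 (epithelium), Kdr and Pecam1 (endothelium), and Itgam, Csf1r, Cd3e and Ptprc (leukocytes), while Epcam (epithelium) and Cdh5 (endothelium) were so on none. Ptprc, with signals from 65.3 to 104, was below the brightest negative control on every array, and Krt14 and Pecam1 were so in untreated p53-/- MEFs.

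Signals below are the deposited processed intensities, and ratios are log2 ratios after each array was divided by its 75th percentile. A gene is called lower or higher where its ratio was at least 2-fold and Feature Extraction had marked its probe as well above background on both arrays. Repeat spots within an array had an SD of 0.08 (log2), which amounts to 0.12 for a ratio of arrays, and this covers spots only, not separate cultures. In bulk RNA, fewer cells that express a gene and less RNA of that gene per cell cannot be told apart.

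After doxorubicin, replication genes were mostly lower in WT MEFs, whereas few of them passed 2-fold in either direction in p53-/- MEFs. In WT MEFs, 30 of the 39 measured members (76.9%) were at least 2-fold lower, against 10.4% of the 17546 genes measured on both arrays, and 0 were at least 2-fold higher, against 11.0%. The members had a median log2 ratio of -1.60, a 3.03-fold decrease, where the median of all genes was 0.01. The remaining 4 members, Cdc6, Gmnn, Mcm8 and Pola2, were well above background on every array except that of doxorubicin-treated WT MEFs. Their decreases are given as lower bounds, the smallest of them 3.02-fold. The 4 signals on that array were no higher than its brightest negative control, 77.5, and bounds set at that level would be smaller. In p53-/- MEFs, 1 of 43 members was at least 2-fold lower, against 6.89% of 16978 genes, and 7 were at least 2-fold higher, against 9.24%. Their median was 0.54, with all genes at 0.00, and 36 of the 43 were above 0, or 33 when arrays were scaled to their medians. That scaling gave all genes a median of -0.27 in WT MEFs and -0.30 in p53-/- MEFs, so the members stood 1.61 below and 0.54 above all genes by either scaling, but 0 of the 7 stayed at least 2-fold higher in p53-/- MEFs. The 10 housekeeping genes of a reference list had a median of 0.06 in WT MEFs and -0.14 in p53-/- MEFs, and Actb had 0.04 and -0.42. Of that list, Hprt rose in WT MEFs, with 1.13 (0.85 by array median), and B2m, at 1.0, was the highest in p53-/- MEFs, just short of 2-fold.

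**Figure D1:**
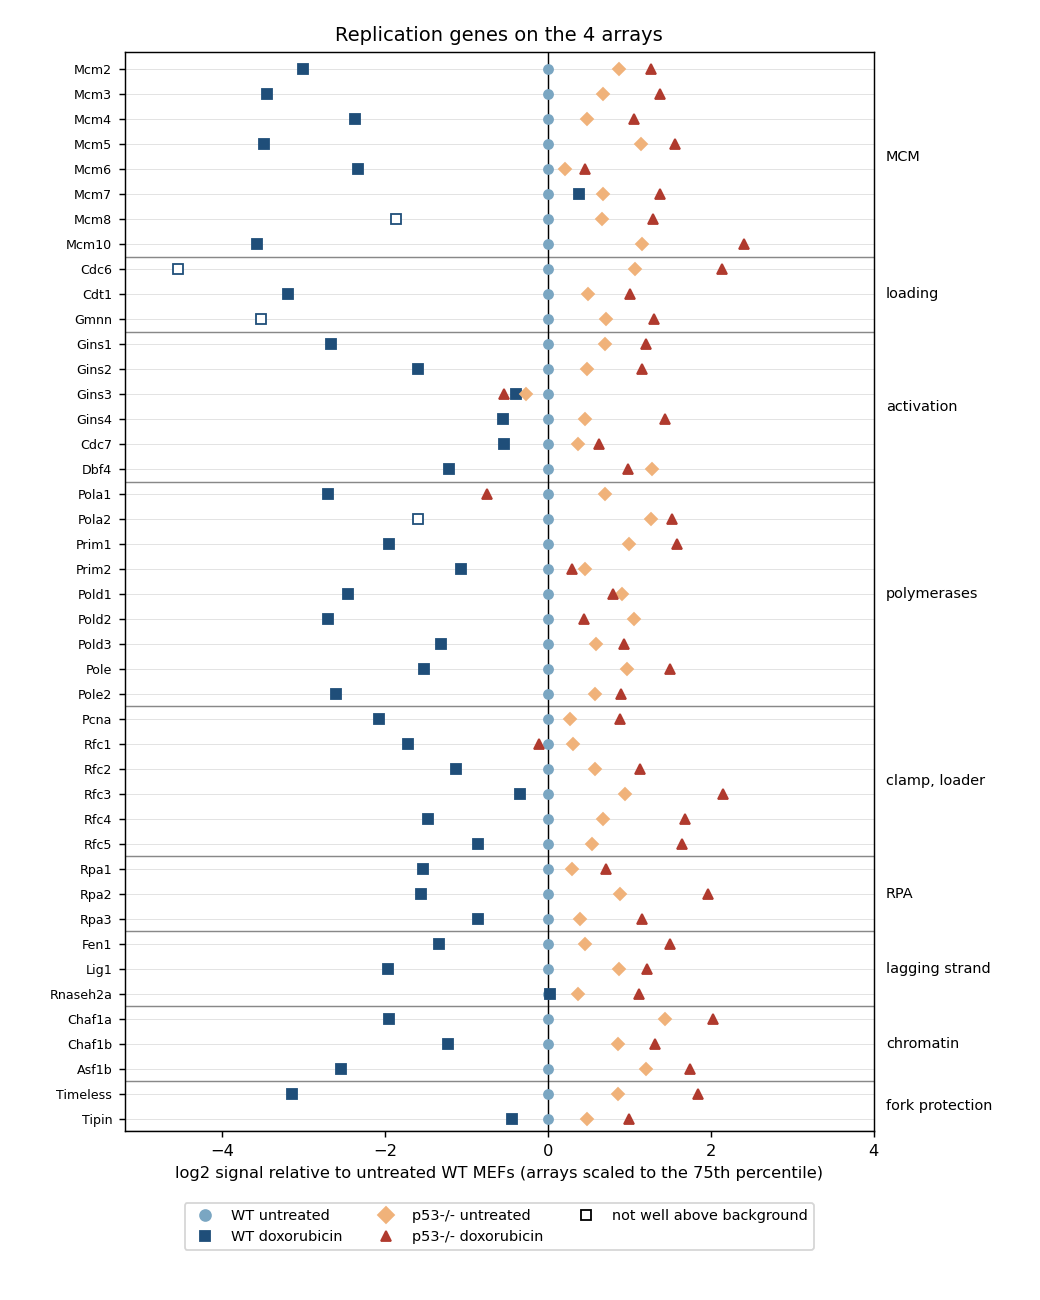
Signals of the 43 replication genes (rows, by role) on the 4 arrays, as log2 relative to untreated WT MEFs (x axis) after scaling to the 75th percentile; each point is 1 array and open squares were not well above background. Doxorubicin-treated WT MEFs lie farthest to the left for 36 of the 39 members measured on all arrays, with Mcm7, Gins3 and Rnaseh2a as the exceptions, and doxorubicin-treated p53-/- MEFs lie farthest to the right for 32.

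The arrays fell in the same order for most members. Doxorubicin-treated WT MEFs were the lowest array for 36 of the 39 members measured on all arrays, against 28.6% of 16538 genes, and doxorubicin-treated p53-/- MEFs the highest for 32, against 28.2%. Of the 39 members measured on all 4 arrays, 30 had their lowest value in doxorubicin-treated WT MEFs, were higher in untreated WT, higher again in untreated p53-/-, and highest in p53-/- MEFs with doxorubicin, an order that 8.34% of genes had. Cdc7 is among these 30, although it was below the brightest negative control in doxorubicin-treated WT and untreated p53-/- MEFs. The plot of signals by array shows the spread among these 39 members, from Mcm10 with the widest range to Gins3, whose 4 arrays lay close together.

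The promoters of these genes were read from RefSeq (GRCm38.p6), 250 bases before to 50 after each start site, for the 34 members that the table holds. An E2F motif, searched as TTTCCCGC, TTTCGCGC, TTTGCCGC or TTTGGCGC on both strands, was present in 14 of the 40 promoters of members (35.0%) and in 2.26% of all 32851 promoters. CCAAT, the letters bound by NF-Y, was present in 52.5% and 37.4%. The cell cycle homology region (CHR), searched as TTTGAA, was present in 20% and 17.9%. The median GC content was 61.8% for members and 52.7% for all promoters, and its part in the share of E2F matches was not tested. A match is a description of these letters and not a shown binding site. The stretches around the E2F matches are printed 5′ to 3′ on the strand of the gene, with matches in capitals and with overlapping matches merged. Mcm3 and Mcm7 each have a second match, 39 and 17 bases after the start site, which lies outside the stretch shown. The first 5 belong to genes named by rule, and Mcm5, Mcm6, Mcm7 and Gins3 were added after their values were seen, because they hold the letters and moved differently.
Mcm3, chr1:20820275-20820304, minus strand: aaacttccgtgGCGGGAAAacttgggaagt
Cdt1, chr8:122568035-122568064, plus strand: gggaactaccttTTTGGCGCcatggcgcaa
Pole2, chr12:69228162-69228191, minus strand: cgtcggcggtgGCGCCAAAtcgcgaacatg
Lig1, chr7:13278841-13278870, plus strand: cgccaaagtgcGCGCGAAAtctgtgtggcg
Pola1, chrX:93632266-93632313, minus strand: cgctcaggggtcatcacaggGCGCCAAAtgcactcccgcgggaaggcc
Mcm5, chr8:75109336-75109387, plus strand: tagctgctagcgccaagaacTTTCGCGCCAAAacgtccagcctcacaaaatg
Mcm6, chr1:128359725-128359835, minus strand: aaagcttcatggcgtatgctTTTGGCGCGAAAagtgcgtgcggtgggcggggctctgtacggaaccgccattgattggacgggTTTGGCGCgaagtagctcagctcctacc
Mcm7, chr5:138172021-138172068, minus strand: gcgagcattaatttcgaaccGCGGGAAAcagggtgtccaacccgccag
Gins3, chr8:95633498-95633545, plus strand: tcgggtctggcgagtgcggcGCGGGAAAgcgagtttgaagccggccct

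The E2F letters were in promoters of some genes with large ratios and of some with small ratios, and a link between letters and ratios was not tested. The 12 measured members with a match had a median log2 ratio of -2.39 after doxorubicin in WT MEFs, within a range from -3.49 (Mcm5) to 0.38 (Mcm7), and the 19 without had -1.56, within a range from -3.57 (Mcm10) to 0.03 (Rnaseh2a). For the WT ratio minus the p53-/- ratio, the medians were -2.33 and -2.39. No match was found for Mcm10, Timeless or Pcna, which says only that these letters are not in this window. The 20 matches started between 165 bases before and 40 bases after the start site, and 13 of them lay within 100 bases of it.

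**Figure D2:**
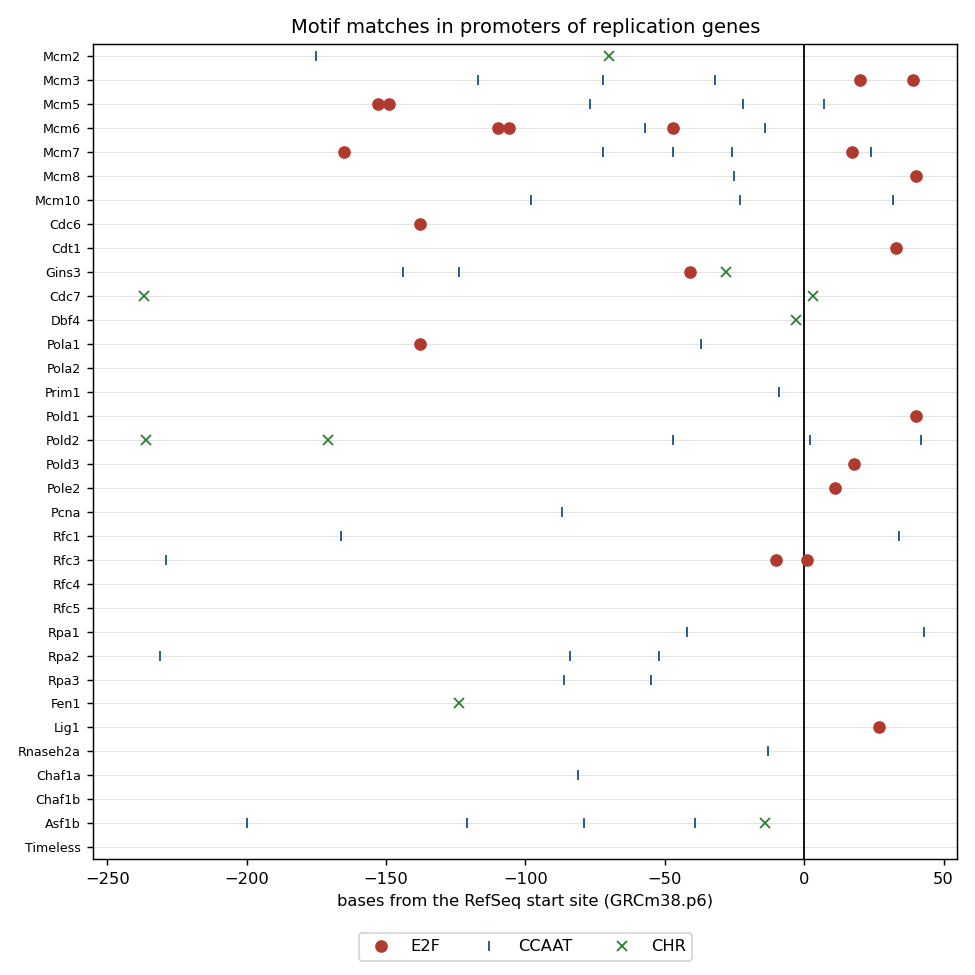
Positions of E2F (circles), CCAAT (bars) and CHR (crosses) matches in bases from the RefSeq start site (x axis) for the 34 members with a promoter (rows, by role). E2F matches were found in 14 of these genes, 10 matches before and 10 after the start site.

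The MCM genes held the widest measured changes of the list after doxorubicin in WT MEFs, and 1 subunit stood apart. Of the 6 genes of the MCM2-7 helicase, 5 were at least 2-fold lower after doxorubicin in WT MEFs, against 10.4% of all genes, with log2 ratios of -3.49 for Mcm5, -3.45 for Mcm3, -3.01 for Mcm2, -2.37 for Mcm4 and -2.33 for Mcm6. In p53-/- MEFs, the same subunits had ratios from 0.24 (Mcm6, -0.06 by array median) to 0.71 (Mcm3). Mcm3 had signals of 15555 in untreated WT, 1249 in doxorubicin-treated WT, 22456 in untreated p53-/- and 47224 in doxorubicin-treated p53-/- MEFs. Thus 1 array was more than 10-fold below the others, a 10.9-fold decrease within WT MEFs, and a second Mcm3 probe gave ratios of -3.43 and 0.83. Mcm10, which joins the helicase when origins fire (probe on mm9 chromosome 2, 4911785 to 4911844), had signals of 2433, 180, 4946 and 15134 in the same order. Its low value in doxorubicin-treated WT and its high value in doxorubicin-treated p53-/- MEFs gave log2 ratios of -3.57 and 1.25. The difference between these ratios, -4.82, was the largest among the measured members, and 7 of the 16538 genes with 4 measured arrays had a lower one. Mcm8, a relative of the helicase used in recombination, had signals of 217, 51.9, 310 and 618. Its value in doxorubicin-treated WT MEFs was not well above background, so the decrease there is given as a bound, 3.67-fold, or 3.02-fold by a second, dimmer probe.

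Mcm7 did not follow the other helicase subunits. Its single probe (mm9 chromosome 5, 138605925 to 138605984) had signals of 17540 in untreated WT, 20033 in doxorubicin-treated WT, 25353 in untreated p53-/- and 53050 in doxorubicin-treated p53-/- MEFs. The lowest array was thus untreated WT, and the log2 ratios were 0.38 in WT (0.11 by array median) and 0.70 in p53-/- MEFs. In p53-/- MEFs this ratio lay within the range of the other subunits, and in WT MEFs it lay above all of them. Mcm7 was chosen for this account after its values were seen. With 1 probe, a change in Mcm7 and a property of this probe cannot be told apart.

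The helicase loaders were low in doxorubicin-treated WT MEFs, whereas the ORC genes stayed under 2-fold there. Cdt1, the MCM loader that licenses origins, had signals of 7921, 755, 10032 and 18558. The array of doxorubicin-treated WT MEFs was the lowest, 9.20-fold below untreated WT, and the log2 ratio in p53-/- MEFs was 0.52. Cdc6, which loads MCM together with Cdt1, had signals of 389, 14.6, 741 and 2006. Its value in doxorubicin-treated WT MEFs was not well above background, which gives a decrease of at least 7.69-fold, and in p53-/- MEFs it rose by a log2 ratio of 1.07. A second, dimmer Cdc6 probe gave at least 4.11-fold and 0.78, under 2-fold in p53-/- MEFs. Gmnn, the inhibitor of Cdt1, had signals of 770, 58.4, 1146 and 2214, again not well above background in doxorubicin-treated WT MEFs, for a decrease of at least 11.6-fold. Hence the loader genes and the gene of their inhibitor had the same low array. These bounds use the lowest signal called well above background on that array, 44.3, or the probe's own signal where higher, and the brightest of 153 negative controls reached 77.5 there.

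Orc2 to Orc5, listed in the files as Orc2l to Orc5l and matched through RefSeq accessions, had log2 ratios after doxorubicin between -0.30 and 0.32 in WT and between -0.26 and 0.20 in p53-/- MEFs. None of these passed 2-fold. The directions of Orc3 in both genotypes, and of Orc2 and Orc4 in p53-/- MEFs, are not settled. The mean of both Orc3 probes gave 0.01 in WT and 0.52 in p53-/- MEFs, against -0.12 in each by the brighter probe. Array medians gave -0.10 for Orc2 and -0.12 for Orc4 in p53-/- MEFs. In WT MEFs, the mean of both Orc4 probes gave 0.52, a larger ratio in the same direction. Orc6 (Orc6l), the smallest ORC subunit, had signals of 13309, 6804, 17314 and 52094. Its ratios were -0.78 in WT and 1.22 in p53-/- MEFs, so that it rose at least 2-fold in p53-/- MEFs and stayed under 2-fold in WT MEFs (0.93 and -1.05 by array median, which turns both calls), and the difference of -2.0 was wider than that of the other ORC genes.

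Genes for origin firing were mixed. Gins1, a subunit of the GINS complex that binds the helicase, had signals of 1872 in untreated WT, 258 in doxorubicin-treated WT, 2762 in untreated p53-/- and 5020 in doxorubicin-treated p53-/- MEFs. Gins2, another GINS subunit, had signals of 1466, 424, 1850 and 3804. Both were lowest in doxorubicin-treated WT and highest in doxorubicin-treated p53-/- MEFs, with log2 ratios of -2.67 and 0.50 for Gins1 and -1.60 and 0.68 for Gins2. Gins4 had ratios of -0.56 and 0.98. Gins3 (mm9 chromosome 8, 98168040 to 98168099), the remaining subunit, had signals of 25521, 17074, 19230 and 20424, with ratios of -0.39 and -0.28, and its difference of -0.11 was the smallest of the list. The GINS genes therefore spanned differences from -3.17 to -0.11. Gins3 had 1 probe, so the limit given for Mcm7 holds for it too. Dbf4, which activates the kinase Cdc7, was at least 2-fold lower in WT MEFs (-1.22) and had -0.30 in p53-/- MEFs. Cdc7 had signals of 112, 67.7, 131 and 202, where the brightest negative controls reached 108.3, 77.5, 250.1 and 119.7. It was thus below them in doxorubicin-treated WT and in untreated p53-/- MEFs, and its ratios of -0.53 and 0.26 (-0.04 by array median) carry little weight.

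Of the 9 genes for polymerases alpha, delta and epsilon and primase on the list, 8 were measured on both WT arrays and were at least 2-fold lower after doxorubicin there, against 10.4% of all genes, with log2 ratios from -2.71 (Pold2) to -1.07 (Prim2). The remaining small subunits of polymerases delta and epsilon, which are not on the list, were not lower by 2-fold, with 1.05 for Pold4, 0.08 for Pole3 and -0.21 for Pole4. In p53-/- MEFs, the 9 genes had a median of 0.26, and 4 of them were below 0. Prim1, the catalytic primase subunit, had signals of 4704, 1058, 8448 and 16510, which gave ratios of -1.96 and 0.60. Pole2, the accessory subunit of polymerase epsilon, had signals of 844, 121, 1139 and 1841, which gave ratios of -2.61 (-1.95 with the normexp background correction) and 0.33. For both, doxorubicin-treated WT MEFs were the lowest array and doxorubicin-treated p53-/- MEFs the highest. Pola1, the catalytic subunit of polymerase alpha (mm9 chromosome X, 90550189 to 90550248), had signals of 2101, 283, 3109 and 1462. It was the 1 member that fell at least 2-fold in both genotypes, against 3.33% of 16538 genes, with a log2 ratio of -2.70 in WT MEFs and of -1.45 in p53-/- MEFs. The difference between these ratios was -1.25, or -0.94 with normexp, under 2-fold. Like Mcm7, Pola1 had 1 probe, so a change in the gene and a property of the probe cannot be told apart. Pold1 and Pold2, subunits of polymerase delta, had -2.46 and -2.71 in WT and -0.12 and -0.62 in p53-/- MEFs, whereas Pold3 had -1.31 and 0.34. Pole, the catalytic subunit of polymerase epsilon, had -1.53 and 0.53, and Prim2, the large primase subunit, had -1.07 and -0.17. In WT MEFs, Prim2 had -0.99 by normexp, and Pole had -0.69 by the mean with a second probe that was not well above background on any array, so that neither reached 2-fold there. Pola2, the second subunit of polymerase alpha, had signals of 165, 47.9, 359 and 555. In doxorubicin-treated WT MEFs it was not well above background and was below the brightest negative control, 77.5. The bound on its decrease, 3.02-fold, is therefore not firm.

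Pcna, the sliding clamp (mm9 chromosome 2, 132075022 to 132075054), had signals of 19295 in untreated WT, 4002 in doxorubicin-treated WT, 21093 in untreated p53-/- and 41542 in doxorubicin-treated p53-/- MEFs. The untreated arrays were close to each other, and the treated arrays lay on opposite sides of them, 4.23-fold below in WT MEFs and 1.53-fold above in p53-/- MEFs. The replication factor C (RFC) genes, whose products load the clamp, had smaller decreases than Pcna in WT MEFs and, except Rfc1 and Rfc2, larger increases in p53-/- MEFs. Rfc4 had signals of 5273, 1674, 7671 and 19774, lowest in doxorubicin-treated WT MEFs, with log2 ratios of -1.47 and 1.0. Rfc1, the large subunit, had -1.72 and -0.41, Rfc2 had -1.13 and 0.55, Rfc3 had -0.36 and 1.20, and Rfc5 had -0.86 and 1.12. Thus 3 of these 5 genes rose at least 2-fold in p53-/- MEFs, and the other members that did so were Mcm10, Cdc6, Rpa2 and Fen1, 7 in all, against 9.24% of all genes, or 0, against 5.63%, when arrays were scaled to their medians.

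The RPA genes encode the 3 subunits of the single-strand binding complex. Rpa1, the large subunit, had signals of 18190, 5457, 20079 and 34759. Rpa2, the middle subunit, had signals of 941, 280, 1569 and 4308. Both were lowest in doxorubicin-treated WT MEFs, with log2 ratios of -1.55 for Rpa1 and -1.56 for Rpa2, and Rpa2 rose by 1.09 in p53-/- MEFs. Rpa1 had 0.43 there, but -0.08 by its second probe, so its direction in p53-/- MEFs depends on the probe. Rpa3, the small subunit, had -0.85 and 0.77.

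On the lagging strand, Fen1, the flap endonuclease, had signals of 7918, 2735, 9821 and 26100. Lig1, the ligase that seals Okazaki fragments, had signals of 9486, 2124, 15717 and 25804. Doxorubicin-treated WT MEFs were the lowest array for both, with log2 ratios of -1.34 for Fen1 and -1.97 for Lig1, and only Fen1 of them rose at least 2-fold in p53-/- MEFs (1.05, against 0.35). Rnaseh2a, the catalytic subunit of RNase H2, had 0.03 and 0.75. In WT MEFs its other 3 probes gave -0.64, -0.62 and -0.38, and scaling to array medians gave -0.25, so its direction there is not settled.

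The 3 genes on the list for chromatin assembly behind the fork were at least 2-fold lower after doxorubicin in WT MEFs, against 10.4% of all genes. Other histone chaperone genes, not on the list, were mixed there, with -1.09 for Ssrp1 and 0.03 for Supt16 (Supt16h), the subunits of FACT, -0.56 for Rbbp4, the small subunit of CAF-1, and -0.16 for Asf1a, the paralog of Asf1b. Chaf1a, the large subunit of CAF-1, had signals of 2664, 602, 6541 and 12710. Asf1b, a histone chaperone of proliferating cells, had signals of 4501, 680, 9406 and 17651. The steps between the arrays were wide for both, with ratios of -1.96 and 0.59 for Chaf1a and -2.54 and 0.54 for Asf1b, and both p53-/- arrays lay above both WT arrays. Chaf1b, the middle subunit of CAF-1, had -1.23 and 0.45.

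Timeless and Tipin encode partners that protect the fork, and their ratios differed. Timeless (mm9 chromosome 10, 127689823 to 127689882) had signals of 3809, 378, 6287 and 15919. Tipin had signals of 7842, 5081, 9924 and 18190. Timeless was 8.84-fold lower in WT MEFs after doxorubicin, or -2.02 as a log2 ratio by its second probe against -3.14 by the first, while Tipin had -0.44. In p53-/- MEFs, the ratios were 0.98 and 0.51. The difference between the genotypes' ratios was -4.12 for Timeless by the first probe and -2.88 by the second.

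**Figure D3:**
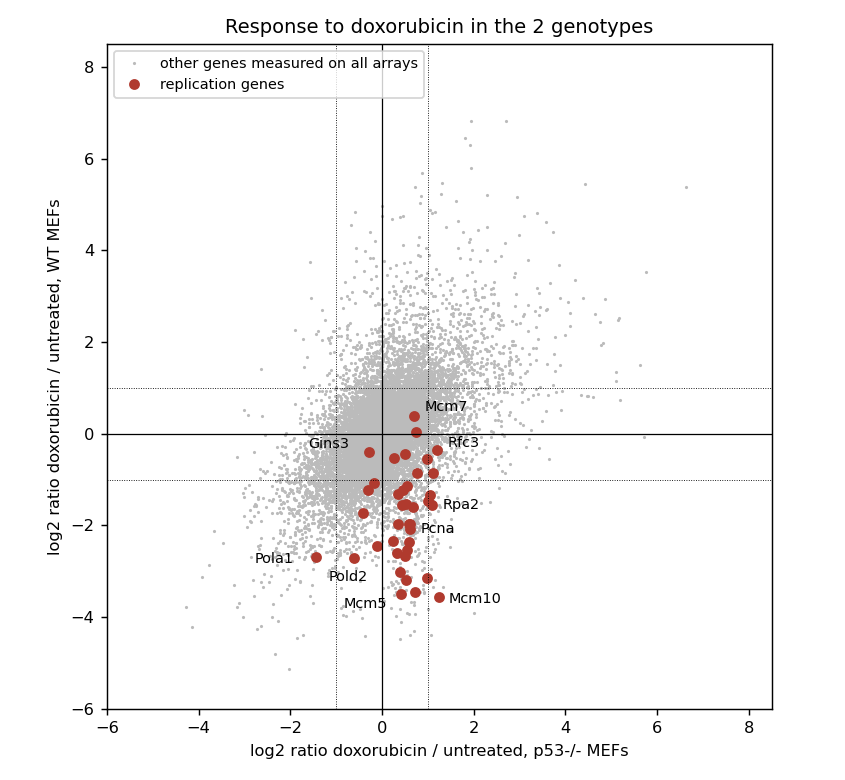
Log2 ratio of doxorubicin-treated over untreated MEFs in p53-/- (x axis) and WT MEFs (y axis) for the genes measured on all 4 arrays; red points are the 39 replication genes, grey points all others, and dotted lines mark 2-fold. Most red points lie below the lower dotted line and right of 0. Left of 0 lie 7 of them, Pola1 the farthest, and 2, Mcm7 and Rnaseh2a, lie above 0 on the y axis.

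The plot of the responses in both genotypes sets these ratios side by side. Among the 39 members measured on all arrays, 24 were at least 2-fold lower in WT MEFs and above 0 in p53-/- MEFs, against 2.88% of 16538 genes. Fen1, Mcm10, Rfc4 and Rpa2 were at least 2-fold lower in WT and at least 2-fold higher in p53-/- MEFs, against 0.351%, and 12 members were so by at least 1.5-fold each way, against 1.84%. Scaling to array medians left 0 members past 2-fold each way, against 0.200% of genes, and 8 past 1.5-fold, against 1.41%, of which 6 were among the 12. The WT ratio minus the p53-/- ratio was at least 2-fold lower for 32 of the 39, against 9.86% of 16538 genes, and at least 2-fold higher for 0, against 8.38%. Its median was -2.28, with all genes at 0.01, and all 39 were below 0. Across the 39 genes, which share the arrays and are not replicates, Pearson's r between the ratios of the genotypes was 0.132 and Spearman's rho 0.156, given as a description.

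Untreated MEFs of the genotypes already differed slightly. In p53-/- over WT MEFs without doxorubicin, 8 of 43 members were at least 2-fold higher, against 2.15% of 17317 genes, and 0 were at least 2-fold lower, against 2.62%. The median log2 ratio was 0.67, with all genes at 0.00, and 42 of 43 members were above 0. Chaf1a had the highest value, 1.44, followed by Dbf4 and Pola2 with 1.27, and Gins3 was the 1 member below 0, at -0.27. With normexp, 6 members were at least 2-fold higher, against 1.26% of genes, and Pola2 had 0.94, under 2-fold. Quantile normalization gave 9 members, against 1.87%. With doxorubicin, the genotypes lay farther apart. There, 37 of 39 members were at least 2-fold higher in p53-/- MEFs, against 11.9% of 17918 genes, and 0 were at least 2-fold lower, against 10.3%, with a median of 2.84. Mcm10 had 5.98, Mcm5 5.05, Timeless 4.98 (3.47 by its second probe) and Mcm3 4.83, and 3 genes of the array had a higher value than Mcm10. Mcm7, at 0.99 (1.11 by quantile normalization, past 2-fold), and Gins3, at -0.15, were the exceptions. These 2 comparisons use the same arrays as the responses above and add no independent evidence.

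**Figure D4:**
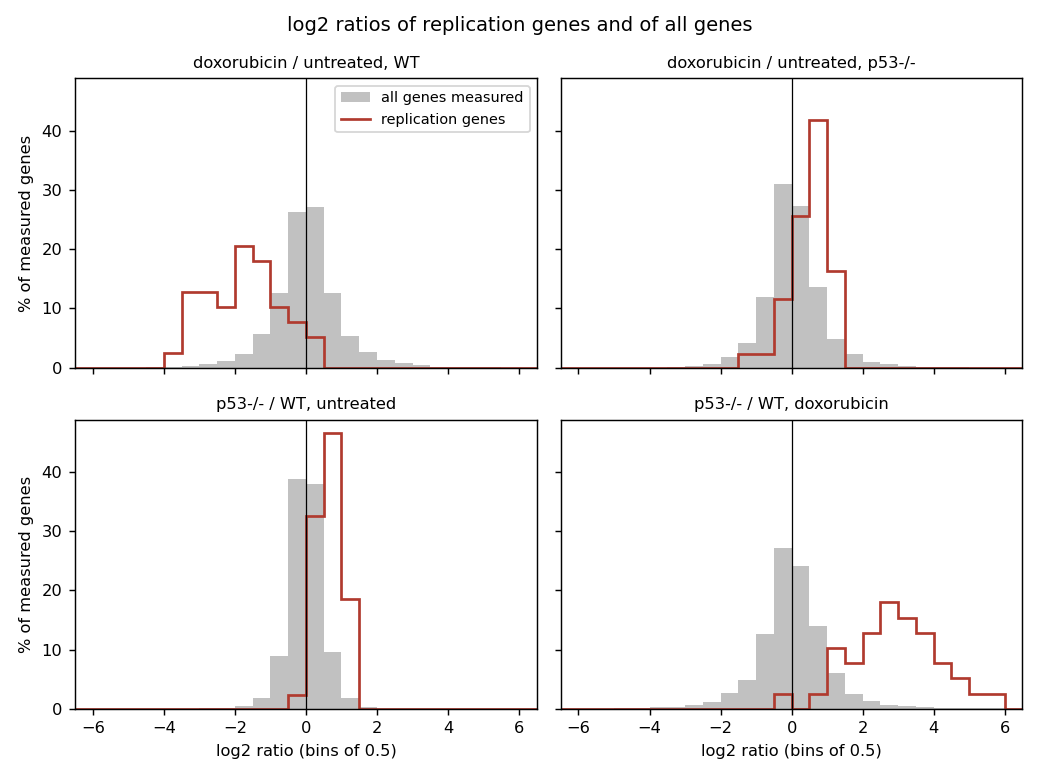
Share of measured genes (y axis, percent) by log2 ratio (x axis, bins of 0.5) for the replication genes (red line) and all genes (grey) in 4 comparisons. The members' medians are -1.60, 0.54, 0.67 and 2.84 from top left to bottom right, and the medians of all genes lie at or near 0.

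Another 30 genes of replication that are not on the list were also often lower in WT MEFs. There, 14 of the 28 measured were at least 2-fold lower, against 10.4% of all genes, and 2 were at least 2-fold higher, against 11.0%, with a median log2 ratio of -1.0. In p53-/- MEFs, 1 of 30 was lower (3.33%, against 6.89% of all genes) and 2 were higher (6.67%, against 9.24%), shares below those of all genes, with a median of 0.32, or 0.02 by array median, where all genes had -0.30. Chtf18, of an alternative clamp loader, had signals of 2326, 283, 4444 and 9444, lowest in doxorubicin-treated WT MEFs. Its difference of -3.57 was the widest among those of these genes that were measured on all 4 arrays. Ticrr, an origin firing factor listed as 5730590G19Rik, had signals of 1190, 128, 2595 and 4456. Atad5, which unloads Pcna, had ratios of -2.53 and 0.52, Donson, a helicase assembly factor, had -1.96 and 0.92, and Cdc45 (Cdc45l), the helicase partner of GINS, had -1.46 and 0.68. With normexp, the WT ratios were -0.82 for Cdc45, under 2-fold, -1.79 for Atad5 and -2.32 for Ticrr. The 2 genes that rose in WT MEFs were Rnaseh2c, an RNase H2 subunit, with 1.20, and Pold4, with 1.05, but array medians gave 0.92 and 0.77, so that neither reached 2-fold. Likewise, the 2 that rose in p53-/- MEFs, Pole3 with 1.11 and Orc1 (Orc1l) with 1.0, had 0.81 and 0.71 by array median.

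Some markers of cell type moved with the same arrays. Of the 10 fibroblast markers, 4 were at least 2-fold lower after doxorubicin in WT MEFs, against 10.4% of all genes, and 2 in p53-/- MEFs, against 6.89%, with medians of -0.61 and -0.27. Their summed signal was 1735815, 1241720, 1295220 and 1363481 in the order of arrays used above, and Col1a2 was the brightest on each. Lum, a collagen-binding proteoglycan, had ratios of -4.81 and -2.34, and Pdgfra, a growth factor receptor, had -3.36 and -0.89, whereas Col1a1 had 0.26 and -0.25 and Vim 0.02 and -0.04. Of 8 leukocyte markers, 0 passed 2-fold after doxorubicin in either genotype where measured, with a summed signal of 33003, 36438, 33713 and 35611 that came mostly from Itgam. Cd68, a macrophage marker, was well above background on 1 array, doxorubicin-treated WT MEFs, at 211, at least 4.25-fold above untreated WT. Of 4 epithelial markers, Krt5 passed background on the array of doxorubicin-treated WT MEFs alone, with a signal of 951, at least 19.1-fold above untreated WT, Krt14 had ratios of 1.54 and 1.05, and Epcam was not well above background on any array. Their summed signal was 415, 1856, 300 and 755, and that of 4 endothelial markers 7611, 7647, 5493 and 5635. The part of these markers in the ratios of the replication genes was not tested.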

How the data were processed

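RNA from WT and p53-/- MEFs, without and with doxorubicin, was labeled with Cy3 and measured on Agilent 4x44K v2 mouse arrays, 1 per condition. The authors deposited spot intensities from Agilent Feature Extraction (version 10.7.3.1), with the background subtracted and trends within the array removed, not normalized between arrays. For each array, their table of intensities for the whole series held these same values at every spot. Other deposited columns are flags, coded 0 or 1, for spots well above background, saturated or outlying. The mean and background intensities deposited by the authors served 1 alternative.

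Here, outlier spots (145 to 168 per array) were left out, spots of a probe averaged as log2, and the array's 75th percentile (1819 to 2421) subtracted over 39429 probes. Each gene was represented by its brightest probe on average. Ratios needed a well-above-background call on each array compared, otherwise a bound is given, and the call was 2-fold. The SD of repeat spots came from 253 probes with 10 spots. No p-value was calculated, and the number of arrays limits the precision. Names followed the files, and older ones were matched through RefSeq. The genes with signals for every array were the 2 with the largest difference per role, Pcna, and those that rose in WT or fell in p53-/- MEFs, and others are given with their reason. Members and lists were chosen with earlier results of these data known. Steps were tested on simulated arrays. Python 3.11.15, numpy 2.4.6, pandas 2.3.3, matplotlib 3.10.9, R 4.3.3 and limma 3.58.1 (normexp) were used.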

Additional observations from a re-analysis of the deposited data

Results flagged for a closer look

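After doxorubicin, 12 of the 39 members measured on all arrays were lower in WT and higher in p53-/- MEFs by at least 1.5-fold each way, against 1.84% of 16538 genes. The WT log2 ratio minus the p53-/- log2 ratio was -4.82 for Mcm10, -4.16 for Mcm3 and -4.12 for Timeless, or -2.88 by the second Timeless probe. It was -2.69 for Pcna, -2.65 for Rpa2, -2.57 for Prim1, -2.55 for Chaf1a, -2.47 for Rfc4, -2.39 for Fen1, -2.28 for Gins2, -1.97 for Rfc5 and -1.63 for Rpa3. Among the other replication genes described, it was -3.57 for Chtf18, -2.89 for Donson, -2.14 for Cdc45 (Cdc45l) and -2.0 for Orc6 (Orc6l), which met the same limits. Scaled to array medians, 8 members met them, of which 6 were among the 12 (Fen1, Mcm10, Rfc4, Rfc5, Rpa2 and Timeless) and Gins4 and Rfc3 were added, and Mcm3, Pcna, Prim1, Chaf1a, Gins2, Rpa3, Chtf18 and Cdc45 no longer met them, with Donson and Orc6 remaining. With normexp, Cdc45 no longer met them, at 0.56 in p53-/- MEFs. With 1 array per condition, these differences were not tested.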

How the results depend on the processing

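No direction of the members' medians or of the responses to doxorubicin of the genes named by rule reversed under the 7 alternatives, which were array median scaling, normexp, quantile normalization, dim probes kept, a background call required on all arrays, the mean of a gene's probes and the deposited table. The deposited table was equal at every spot to the signals used here, so that alternative could not change a result. Scaling to the array median gave medians of -1.88 in WT and 0.25 in p53-/- MEFs and 0 members higher in p53-/- MEFs. It also turned the split of all genes in WT MEFs from 10.4% lower and 11.0% higher to 15.9% and 7.53%, and in p53-/- MEFs from 6.89% and 9.24% to 12.4% and 5.63%, since it shifts every ratio of an array pair alike. With no filter on dim probes, the WT median was -1.72, and the median of p53-/- over WT MEFs with doxorubicin was 3.03. Under normexp, the median difference was -2.06, and Cdc45 in WT MEFs moved from -1.46 to -0.82. At 1.5-fold and 3-fold, 19 and 0 of 43 members were higher in p53-/- MEFs after doxorubicin, against 19.4% and 3.82% of all genes, and 25 and 0 in untreated p53-/- over WT MEFs, against 8.73% and 0.254%. Other genes changed sign in some cases. The members and ORC genes that did so after doxorubicin were Rnaseh2a in WT, Mcm6, Pola2 and Cdc7 in p53-/- MEFs, and Orc2, Orc3 and Orc4. Pole did so between untreated genotypes (0.98, or -0.13 for the mean with a probe that was not well above background on any array). Outside these lists, array medians turned Pole3 (0.08 to -0.19), Supt16 (0.03 to -0.25) and Actb (0.04 to -0.23) in WT MEFs. They also turned Ssrp1, Topbp1, Recql4, Rif1 and Rnaseh2b in p53-/- MEFs, among others. No paired analysis was possible because each condition had 1 array. Leaving out a replicate and the slide as a block were not run for the same reason and because there was 1 slide. Signals at or below the brightest negative control, such as those of Cdc7, Cdc6, Gmnn, Mcm8 and Pola2 in doxorubicin-treated WT MEFs, limit what can be said of these genes.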
